A study of Mus musculus with 18 samples.

Results

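Circular RNAs of 9 genes of the motile cilium were followed in mouse brain: Dnah11, Dnah9, Dnah5, Dnah6, Cfap54, Hydin, Spag16, Spag17 and Cfap44. Every circle that the deposited tables assign to one of these genes was taken. That gave 453 of 208914 circles on Illumina, which held 15021 of 24811696 back-splice reads (0.0605%), and 111 of 166212 circles on Oxford Nanopore (ONT), with 1235 of 3048404 reads (0.0405%). The 9 genes were among 15902 genes with a circle on Illumina and 13912 on ONT.

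The RNA came from whole brains of male C57BL/6J mice aged 3 to 4 months. Adar1-2KO mice carried an Adar1 without editing activity (Adar1E861A/E861A), no Ifih and no Adar2, and the Gria2R/R allele, which encodes the edited form of this glutamate receptor subunit. Adar2KO mice lacked Adar2 and also carried Gria2R/R, so both mutants share the loss of Adar2 and the Gria2R/R allele, and wild type mice had none of these changes. Each genotype had n = 3 libraries on Illumina. On ONT Adar1-2KO and Adar2KO had n = 3 and wild type had n = 2, since wild type replicate 1 was not analysed here on that platform. The labels do not say that a replicate number marks a separate animal, so p-values measure the spread between these samples, which may be partly technical. Total RNA was digested with RNase R, which removes linear RNA, and copied around the circles before both kinds of library were made from amplified cDNA, so the 2 platforms are not independent of that amplification.

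A circular RNA forms when the end of an exon is joined back to the start of an earlier exon, and the read across that back-splice junction is what both platforms count. The 9 host genes encode parts of the axoneme, the microtubule core of a beating cilium. Dnah5, Dnah9 and Dnah11 are motor heavy chains of the outer dynein arms, Dnah6 is a heavy chain of an inner arm, and Cfap54, Hydin, Spag16 and Spag17 belong to the central pair apparatus that governs the beat. Cfap44 is an axonemal protein which, in single-celled ciliates and algae, lies at the base of an inner dynein arm. In brain the cells with many motile cilia are the ependymal cells, which line the ventricles and move cerebrospinal fluid. ADAR1 and ADAR2 convert adenosine to inosine in double-stranded RNA, and Ifih1 encodes MDA5, a sensor of such RNA.

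The back-splice junction of the circle with most Illumina reads was read for 7 of the 9 genes, because these are the junctions whose reads carry the values that follow. The lower-case letters are the last 30 bases of the last exon in the circle and the capitals are the first 30 bases of its first exon, 5′ to 3′ on the strand of the gene. The bases come from the GENCODE M21 transcripts, which are on GRCm38, matched by the exon lengths that the ONT lists give. The circle coordinates are those of the deposited tables, on GRCm39. For Dnah5, chr15:28293722-28295614 tied with another circle at 40 Illumina reads, and the former was taken as leading. It and the leading circle of Spag17 were not listed on ONT, and no junction is shown for them.
Dnah11 exons 71 to 74, chr12:117874753-117880706, minus strand: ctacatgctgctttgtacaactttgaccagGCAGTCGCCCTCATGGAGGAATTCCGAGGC
Dnah9 exons 40 to 43, chr11:65867163-65881361, minus strand: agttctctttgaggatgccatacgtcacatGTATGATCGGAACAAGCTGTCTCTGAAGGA
Dnah6 exons 37 to 38, chr6:73098763-73100876, minus strand: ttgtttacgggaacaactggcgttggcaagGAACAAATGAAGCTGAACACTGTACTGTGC
Cfap54 exons 57 to 61, chr10:92704585-92714474, minus strand: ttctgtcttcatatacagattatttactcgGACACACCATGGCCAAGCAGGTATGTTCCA
Hydin exons 3 to 5, chr8:111024707-111035829, plus strand: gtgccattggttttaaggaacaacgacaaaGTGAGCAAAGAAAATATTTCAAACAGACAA
Spag16 exons 6 to 10, chr1:69909423-69935740, plus strand: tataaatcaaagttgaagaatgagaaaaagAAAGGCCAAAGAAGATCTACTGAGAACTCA
Cfap44 exons 29 to 30, chr16:44288735-44291226, plus strand: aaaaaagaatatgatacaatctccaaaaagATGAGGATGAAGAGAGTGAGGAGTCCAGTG
The matched transcripts have 82 exons for Dnah11, 69 for Dnah9, 77 for Dnah6, 68 for Cfap54, 87 for Hydin, 17 for Spag16 and 35 for Cfap44. The Dnah11 and Dnah9 circles are 699 and 702 nt long after splicing, the Cfap54 circle is 591 nt and the Cfap44 circle is 242 nt, from exons of 111 and 131 nt.

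The Illumina libraries held 1516772 to 4308264 back-splice reads and the ONT libraries 186594 to 673705. Adar1-2KO replicate 3 stood apart on Illumina. It had the most reads and the fewest circles, 21736 against 54244 to 76743 in the other 8 libraries, so that it held 198 reads per circle against 28 to 47.9. The motile cilia genes followed the library, with 41 circles and 3995 reads there and 103 to 160 circles in each of the others. Their share of all back-splice reads was 0.0927% in Adar1-2KO replicate 3 and 0.044% to 0.0595% in the other 8. Read names placed all 3 wild type libraries, Adar2KO replicate 3 and Adar1-2KO replicate 2 on 1 flow cell, Adar2KO replicates 1 and 2 mainly on another, and Adar1-2KO replicate 3 on 2 more. Adar1-2KO replicate 1 could not be placed. Genotype and flow cell are therefore partly mixed, and values within the shared flow cell, where each mutant has 1 library, are given beside the pooled ones for the sums of Dnah11, Dnah9, Cfap54 and Cfap44 and for the leading circles of Dnah11 and Cfap54. Circles of Adarb1 and Adar were listed in every library. Adarb1, which encodes ADAR2, had 505, 215 and 759 reads in Adar1-2KO, 317, 353 and 336 in Adar2KO and 196, 94 and 84 in wild type, and Adar had 75, 54 and 9 in Adar1-2KO, 112, 70 and 78 in Adar2KO and 163, 85 and 31 in wild type. A circle outside the altered part of a gene does not check its loss.

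Most circles of the 9 genes were rare, and a few carried most of the reads. Of the 453 Illumina circles, 253 (55.8%) were listed in 1 library, close to 55.6% of all circles. Only 10 (2.21%) were listed in all 9 libraries, against 4.53% of all circles, and these held 45.4% of the genes' reads, against 77.8% of the reads of all circles. By the tables' annotation 426 of the 453 were exonic, 26 intronic and 1 antisense. The reads and circle numbers given for each gene are not set per length, so they do not rank the genes by level.

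Among the outer arm chains, Dnah11 had 123 circles and 5489 reads, and its exon 71 to 74 circle alone had 2650 of them (48.3%). Dnah9 had more circles, 152, with 2572 reads spread over many of them. Its leading circle, exons 40 to 43, held 12.9%, and 11 circles were needed to reach 50% of its reads, against 2 for Dnah11. Dnah5 had 20 circles with 171 reads, of which chr15:28293722-28295614, taken as leading, and chr15:28326666-28350857 had 40 each. The inner arm chain Dnah6 had 22 circles with 177 reads, of which 51 belonged to the exon 37 to 38 circle.

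Of the central pair genes, Cfap54 had 81 circles and 4895 reads, and 2332 of these (47.6%) came from the exon 57 to 61 circle. Spag16 had 15 circles with 362 reads, Hydin 20 with 310, and Spag17 only 4 with 16, each in a single library. Cfap44 was the most concentrated, with 795 of its 1029 reads (77.3%) in the exon 29 to 30 circle. Median genomic spans of the circles ranged from 10.5 kb for Spag17 to 35.0 kb for Dnah9.

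**Figure D1:**
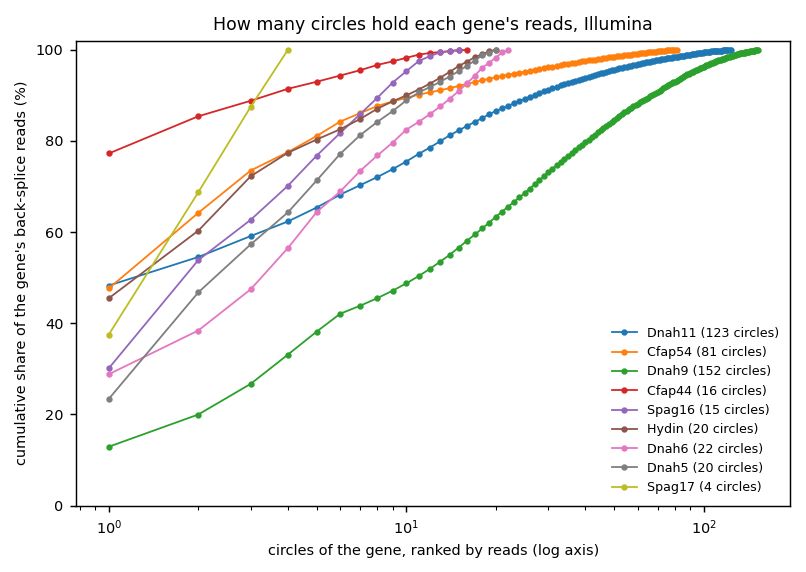
Cumulative share of each gene's Illumina back-splice reads (%) against its circles ranked by reads on a log axis, with 1 line for each of the 9 genes. The Cfap44 line starts at 77.3% and the Dnah9 line at 12.9%, which needs 11 circles to pass 50%.

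The circles of a gene reused the same exon ends. On Illumina the 453 circles had 189 end positions, 94 of which were shared by more than 1 circle and together served 358 circles. Likewise 96 of 197 start positions were shared, by 352 circles. Dnah9 had the most reused position, chr11 65951951, at which 15 circles ended with 490 reads (19.1% of the gene). Its 2 most read clusters meet in the leading circle, since 10 circles with 520 reads start at 65867163 and 8 circles with 519 reads end at 65881361. The 3 most read circles of Cfap54 all ended at 92714474, with 2332, 812 and 455 reads. The 2 most read circles of Spag16 ended at 69935740 and therefore share the lower-case letters of the junction shown, and the 2 most read Hydin circles started at 111024707.

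The ONT reads gave the exons inside the circles. For 64 of the 111 ONT circles, with 935 of 1235 reads, the listed exons matched a stretch of 1 annotated transcript. These held 2 to 14 exons (median 6) and were 242 to 2245 nt long after splicing (median 910), with a GC content of 40.3% to 53.0%. The length was a multiple of 3 in 31 of the 64, among them the leading circles of Dnah11, Dnah9, Cfap54 and Dnah6. The introns next to them were long. The median was 6647.5 nt before and 8538.5 nt after the circle, against 2289.5 nt over 506 introns of the 8 transcripts, and 42 and 53 of the 64 circles had an intron before and after that exceeded their own transcript's median. Many of these circles share an intron, so the 64 are not independent.

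Both platforms gave the same most read circle for Dnah11, Dnah9, Cfap54, Cfap44 and Hydin. For Dnah5 the most read ONT circle, chr15:28326666-28350857 with 4 reads, was among those tied on Illumina. Of the 111 ONT circles 85 (76.6%) were also on Illumina, where they made up 18.8% of the 453 circles and 70.5% of the reads. For all circles the shared part was 27.9% of the ONT list, 22.2% of the Illumina list and 87.2% of the Illumina reads. The shared part of the Illumina reads was thus lower for these genes than for all circles. Of the ONT reads, the shared part was 94.3% for these genes and 80.1% for all circles. The shared circles were 31 of Dnah9, 23 of Dnah11, 15 of Cfap54, 5 of Dnah6, 4 each of Cfap44 and Spag16, 2 of Dnah5 and 1 of Hydin, and none of Spag17. A clear exception was the second Cfap54 circle, chr10:92665515-92714474. It had 126, 80 and 301 Illumina reads in Adar1-2KO, 75, 0 and 48 in Adar2KO and 76, 70 and 36 in wild type, and was listed in no ONT library.

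**Figure D2:**
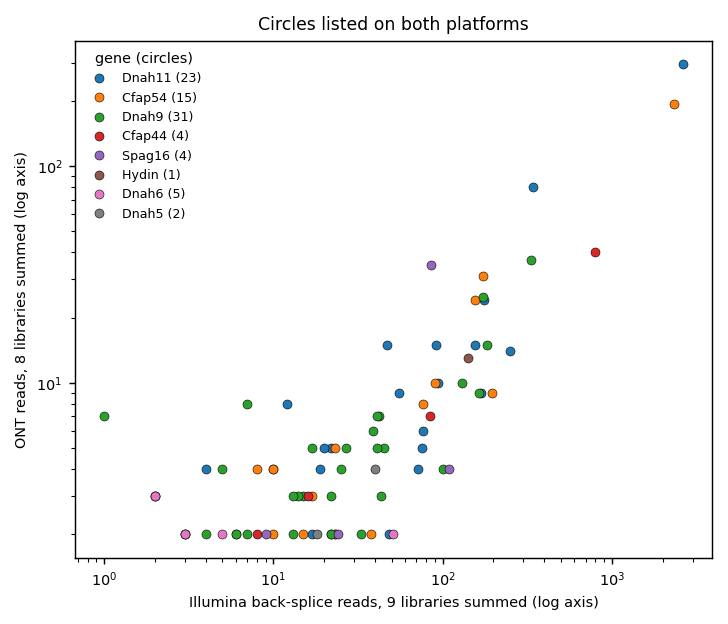
Illumina back-splice reads summed over 9 libraries against ONT reads summed over 8 libraries, both on log axes, for the 85 circles of the 9 genes listed on both platforms, coloured by gene. The leading circles of Dnah11 (2650 and 296 reads) and Cfap54 (2332 and 193 reads) lie at the upper right.

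No circle of the 9 genes and none of the 9 genes passed the test in any comparison of the genotypes. A total of 62 of the 453 circles had at least 5 reads in at least 3 libraries and could be tested on Illumina, 21 of Dnah11, 20 of Dnah9, 10 of Cfap54, 3 each of Cfap44, Spag16 and Hydin and 2 of Dnah5, while none of Dnah6 or Spag17 could. The test was edgeR's quasi-likelihood test with Benjamini-Hochberg adjustment over all 38297 circles or 8651 host genes, and a feature was called at an adjusted p under 0.05. Of all circles, 0.0627% were called in Adar1-2KO against wild type, 0.0209% in Adar1-2KO against Adar2KO and 0.0209% in Adar2KO against wild type, and 0 of the 62 were called in each. Of all host genes, 0.0925%, 0.0462% and 0.0694% were called in these comparisons, and 0 of the 9. At an unadjusted p under 0.05, edgeR counted 8 of the 62 circles (12.9%, against 6.74% of all circles), 9 (14.5%, against 6.38%) and 0 (against 1.82%). The same count among the 9 host genes was 1 (against 7.66% of all host genes), 2 (against 6.59%) and 0 (against 1.75%). Some circles of low p met the minimum of reads only through the genotypes where they were higher, and circles not listed entered as 0. The counts at an unadjusted p are therefore descriptions and no test of the 9 genes as a set. DESeq2 also called no circle and no host gene of the 9 genes. On ONT, 6 circles and 4 host genes could be tested and none was called, against 0%, 0.473% and 0.00965% of all circles and 0.0376%, 1.03% and 0.0752% of all host genes in the same comparisons. At an unadjusted p under 0.05, 2 of the 6 ONT circles were counted in Adar1-2KO against Adar2KO (10.4% of all), 0 in Adar1-2KO against wild type (7.32%) and 0 in Adar2KO against wild type (4.21%).

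CPM here sets the back-splice reads of a circle or gene to a library of 1000000 such reads, with TMM scaling, and log2 fold changes are given with their standard error. Circles summed per host gene gave the level of each gene's back-spliced RNA. In bulk tissue, fewer cells of a type and less RNA per cell cannot be told apart. Dnah11 had 768, 589 and 1066 reads in Adar1-2KO, 387, 666 and 509 in Adar2KO and 668, 508 and 328 in wild type. This is 252 ± 22.5 CPM in Adar1-2KO, 203.3 ± 80.05 CPM in Adar2KO and 223.2 ± 13.78 CPM in wild type (SD, n = 3 each). The groups overlapped, with Adar2KO spanning both of the others, and the log2 fold change was 0.17 ± 0.27 in Adar1-2KO against wild type (adjusted p = 0.970) and -0.14 ± 0.27 in Adar2KO against wild type (adjusted p = 1). Within the shared flow cell these values were 0.26 and -0.41.

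Dnah9, the other outer arm chain with many reads, had 84.76, 104.4 and 68.57 CPM in Adar1-2KO, 119, 123.6 and 121.3 CPM in Adar2KO and 116.6, 133.6 and 108.6 CPM in wild type. All Adar1-2KO libraries lay below all libraries of both other genotypes. Groups that do not overlap with Adar1-2KO lower were also seen in 8.59% of all host genes against wild type and 7.88% against Adar2KO. The log2 fold change of Dnah9 was -0.48 ± 0.28 against wild type (adjusted p = 0.730) and -0.50 ± 0.28 against Adar2KO (adjusted p = 0.836). Within the shared flow cell it was -0.19 and -0.21, and on ONT, with 22, 27 and 24 reads in Adar1-2KO, 20, 66 and 38 in Adar2KO and 18 and 16 in wild type, it was -0.60 ± 0.56 and -0.75 ± 0.49, or -0.34 and -0.49 without Adar1-2KO replicate 3. Unlike on Illumina, the groups overlapped on ONT. The CPM there was 55.11, 103.7 and 40.38 in Adar1-2KO, 60.84, 164.7 and 99.82 in Adar2KO and 100 and 96.09 in wild type.

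Cfap54 had 188.1, 163 and 434.8 CPM in Adar1-2KO, 140.4, 134.7 and 112.4 CPM in Adar2KO and 165.9, 193.8 and 131.8 CPM in wild type. Adar1-2KO replicate 3 was far above every other library, while replicates 1 and 2 lay within the wild type range. The log2 fold change was 0.68 ± 0.35 in Adar1-2KO against wild type (adjusted p = 0.682) and 1.02 ± 0.35 against Adar2KO (adjusted p = 0.680), where the groups did not overlap, as was so with Adar1-2KO higher for 4.05% of all host genes. Without Adar1-2KO replicate 3 it was 0.09 and 0.43, and within the shared flow cell 0.00205 and 0.54. On ONT replicate 3 was again the high library, with 42, 19 and 150 in Adar1-2KO, 14, 44 and 16 in Adar2KO and 4 and 16 in wild type, and log2 fold changes of 1.31 ± 0.73 against wild type and 1.16 ± 0.60 against Adar2KO. Without Adar1-2KO replicate 3 these were 0.62 and 0.47, and over each library left out in turn they ran from 0.58 to 2.69 and from 0.47 to 1.78.

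The remaining genes had few reads. Spag16 had 56, 36 and 61 reads in Adar1-2KO, 28, 18 and 55 in Adar2KO and 54, 28 and 26 in wild type, which is 15.95 ± 0.7006 CPM in Adar1-2KO, 12.24 ± 5.231 CPM in Adar2KO and 15.88 ± 2.347 CPM in wild type. Hydin ran from 6 to 100 reads within Adar1-2KO alone, and 46 was the most in Adar2KO and 53 in wild type. The ranges of Spag16 and of Hydin overlapped between all 3 genotypes. Dnah6 had 66 reads in Adar1-2KO replicate 1 and was listed in neither of the other Adar1-2KO libraries, with 38, 14 and 24 reads in Adar2KO and 10, 11 and 14 in wild type. Both dynein chains with few reads were not listed in Adar1-2KO replicate 3. Dnah5 had 20, 10 and 0 reads in Adar1-2KO, 20, 31 and 14 in Adar2KO and 49, 7 and 20 in wild type. Spag17 was listed in no Adar1-2KO library, with 5 reads in 1 Adar2KO library and 6 and 5 in 2 wild type libraries. For these 5 genes the adjusted p was 0.656 or higher in every Illumina comparison.

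**Figure D3:**
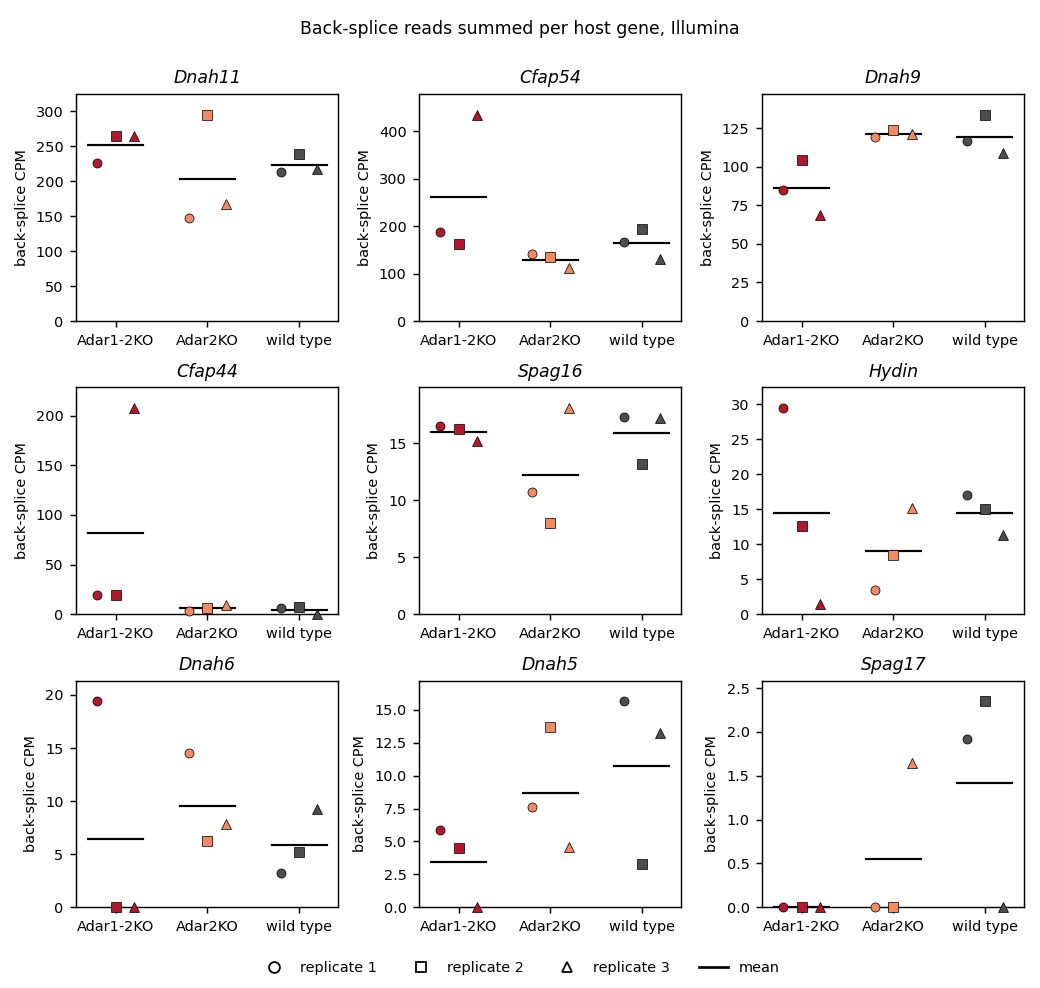
Illumina back-splice CPM summed per host gene for each of the 9 genes, with 1 point per library, its shape giving the replicate, and a line at the mean of each genotype. Adar1-2KO replicate 3 is the highest point for Cfap54 (434.8 CPM) and Cfap44 (207.7 CPM), and the 3 Adar1-2KO points of Dnah9 lie below all others.

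The exon 71 to 74 circle of Dnah11 was the most read circle of the 9 genes on both platforms. Its CPM was 147.1, 142.6 and 153.4 in Adar1-2KO, 58.91, 149 and 71.44 in Adar2KO and 92.57, 88.84 and 104.2 in wild type. The Adar1-2KO libraries were close together and all above wild type, while Adar2KO replicate 2 reached the Adar1-2KO level. The log2 fold change against wild type was 0.63 ± 0.42 (adjusted p = 0.952), and 0.60 within the shared flow cell. Groups that do not overlap with Adar1-2KO higher were seen in 5 of the 62 circles (8.06%) and 2.77% of all circles. On ONT the CPM was 197.2, 155.5 and 172.5 in Adar1-2KO, 95.3, 83.19 and 70.65 in Adar2KO and 98.93 and 144.8 in wild type. On ONT, unlike Illumina, all Adar1-2KO libraries lay above both other genotypes, as they did for 10.7% of all ONT circles against wild type and 7.34% against Adar2KO. The log2 fold change was 0.52 ± 0.39 against wild type (adjusted p = 0.829) and 1.07 ± 0.34 against Adar2KO (unadjusted p = 0.00925, adjusted p = 0.272). The sum over all Dnah11 circles did not have this order on either platform. On Illumina it ran from 226 to 265.2 CPM in Adar1-2KO and from 213.5 to 239 CPM in wild type. On ONT it ran from 196.9 to 238 CPM in Adar1-2KO and from 186.2 to 255.6 CPM in wild type.

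The exon 57 to 61 circle of Cfap54 had 80.49, 65.44 and 262.6 CPM in Adar1-2KO, 60.97, 62.73 and 52.6 CPM in Adar2KO and 80.74, 84.12 and 47.4 CPM in wild type. As for the gene's sum, replicate 3 was the high library. The log2 fold change against wild type was 0.94 ± 0.54 (adjusted p = 0.862), but 0.05 without that library and -0.10 within the shared flow cell. Against Adar2KO it was 1.21 ± 0.54 (adjusted p = 0.780), 0.34 without that library and 0.33 within the shared flow cell. A further Cfap54 circle, chr10:92714319-92722246, holds exons 53 to 57 and so shares exon 57, of 156 nt, with the leading circle. It had 4, 0 and 170 reads in Adar1-2KO and 31 ONT reads in replicate 3, and was listed in no library of either other genotype.

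The exon 40 to 43 circle of Dnah9 had 18.31, 10.28 and 18.33 CPM in Adar1-2KO, 18.95, 6.458 and 25.59 CPM in Adar2KO and 7.77, 7.088 and 7.344 CPM in wild type. All Adar1-2KO libraries lay above wild type, unlike the sum of the gene, and Adar2KO overlapped both. The log2 fold change in Adar1-2KO against wild type was 1.08 ± 0.93 (adjusted p = 1). In Adar2KO against wild type the unadjusted p was 0.222. The exon 3 to 5 circle of Hydin varied widely within Adar1-2KO, with 61, 0 and 6 reads in Adar1-2KO, 2, 9 and 6 in Adar2KO and 36, 16 and 5 in wild type. The exon 6 to 10 circle of Spag16 had 12, 0 and 1 reads in Adar1-2KO, 12, 8 and 31 in Adar2KO and 30, 10 and 5 in wild type, also with overlap. Most Spag16 reads on ONT came from a longer circle with the same last exon. This circle, exons 5 to 10 at chr1:69897632-69935740, had 6, 0 and 10 ONT reads in Adar1-2KO, 3, 2 and 5 in Adar2KO and 5 and 4 in wild type. Its CPM was 19.39, 0 and 19.83 in Adar1-2KO, 10.59, 6.399 and 15.36 in Adar2KO and 30.92 and 26.32 in wild type. Both mutants thus lay below wild type. This was so for 1 of the 6 tested ONT circles in Adar1-2KO (13% of all) and 2 in Adar2KO (10.6% of all). The most read circles of Dnah5 and Dnah6 were patchy. That taken as leading for Dnah5, chr15:28293722-28295614, was listed in no Adar1-2KO library, with 10, 10 and 4 reads in Adar2KO and 16, 0 and 0 in wild type. That of Dnah6 had 40 of its 51 reads in Adar1-2KO replicate 1, and 4 and 7 reads in Adar2KO replicates 1 and 3. On ONT the circle of lowest p in Adar1-2KO against wild type was Cfap54 chr10:92846877-92852473, with 6, 0 and 11 reads in Adar1-2KO, 2, 5 and 0 in Adar2KO and none in wild type (unadjusted p = 0.122).

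**Figure D4:**
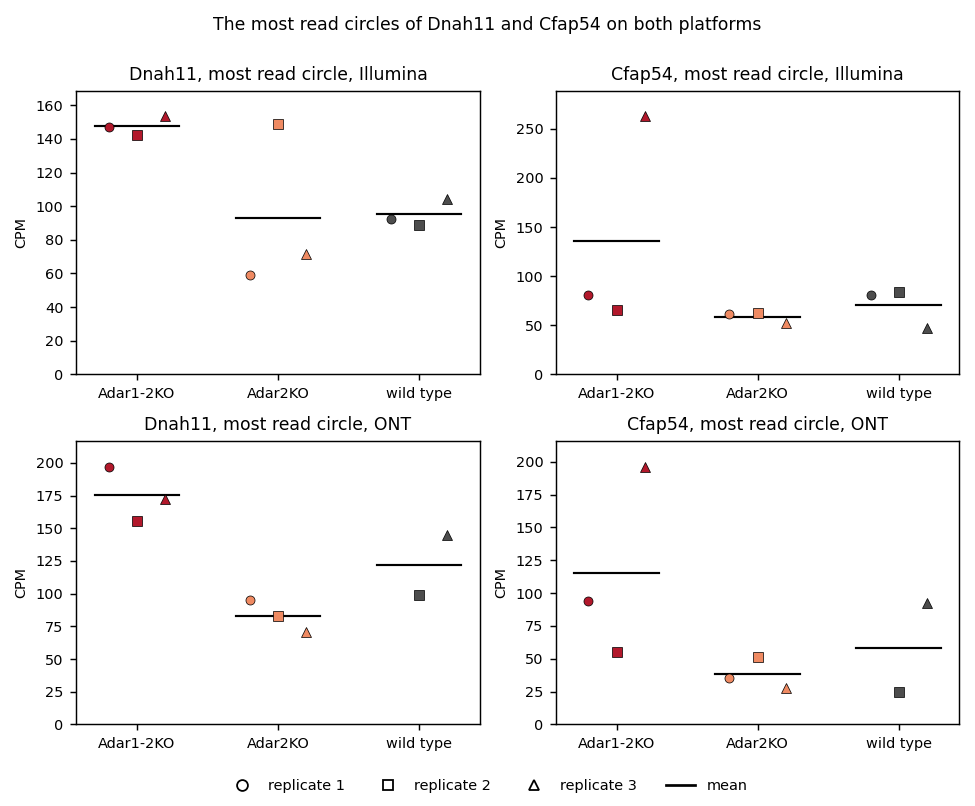
CPM of the most read circles of Dnah11 (left) and Cfap54 (right) on Illumina (top) and ONT (bottom), with 1 point per library, its shape giving the replicate, and a line at the mean of each genotype. For Dnah11 all Adar1-2KO points lie above all wild type points on both platforms, and for Cfap54 the high point is Adar1-2KO replicate 3.

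The exon 29 to 30 circle of Cfap44 was listed in Adar1-2KO alone. It had 37, 22 and 736 Illumina reads and 4, 2 and 34 ONT reads in Adar1-2KO, and was listed in none of the 6 Illumina and none of the 5 ONT libraries of Adar2KO and wild type. A second caller, CIRI2, listed it with 22 and 806 reads in Adar1-2KO replicates 2 and 3 and in none of the 6 libraries of Adar2KO and wild type, and no CIRI2 table was used for Adar1-2KO replicate 1. The lists hold no circle at 0, so a circle that is not listed has no measured 0 and no fold is given. The circle met the minimum of reads only through the Adar1-2KO libraries, so its p is given as a description. The adjusted p was 0.269 against wild type and 0.287 against Adar2KO, and the circle was not called. In the authors' deposited table its log2 fold change in Adar1-2KO against wild type was 5.34 with a p-value of 0.000321 and an adjusted p-value of 0.506. Replicate 3, which stood apart, carried most of the reads. Without any 1 of the Adar1-2KO libraries the circle fell under the minimum of reads and was not tested, and on the shared flow cell it had 22 reads in Adar1-2KO and was not listed in the other 4 libraries.

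On Illumina, a circle listed in every Adar1-2KO library must be on the short list of replicate 3, which holds 21736 circles and limits such counts. Of all Illumina circles 36 were listed in all 3 Adar1-2KO libraries and no other, and the Cfap44 circle had most reads among them. On ONT 75 circles did so, with the Cfap44 circle ninth. On both platforms 2 circles did so, this one and a circle of Kalrn. The same count on Illumina was 303 for Adar2KO, with none of the 9 genes, and 241 for wild type, with 3 of their circles. These were chr10:92665515-92672400 of Cfap54 with 3, 6 and 7 reads, chr12:117924720-117959025 of Dnah11 with 11, 5 and 3, and chr6:73069024-73091692 of Dnah6 with 4, 5 and 8. The Cfap44 circle differs from these in its depth of reads, although most of them are from 1 library.

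The other circles of Cfap44 had few reads or were listed in 1 library, and some of them were listed outside Adar1-2KO. The circle chr16:44229246-44237272 had 7, 5 and 0 reads in Adar1-2KO, 7, 7 and 0 in Adar2KO and 4, 5 and 0 in wild type. The circle chr16:44224385-44225127 had 84 Illumina and 7 ONT reads, all in Adar1-2KO replicate 3. Of the circles that share 1 end with the exon 29 to 30 circle, chr16:44288735-44300337 had 3 reads in Adar2KO replicate 3 and 6 and 3 in wild type replicates 1 and 2, and chr16:44275825-44291226 had 6 reads in Adar1-2KO replicate 2 and 2 in Adar2KO replicate 1. On ONT 4 of the 5 other Cfap44 circles were listed in Adar1-2KO alone, each in 1 library with 2 to 7 reads, and 1 in wild type alone. The gene as a whole had 64, 42 and 836 reads in Adar1-2KO, 9, 15 and 29 in Adar2KO and 19, 15 and 0 in wild type, and Adar1-2KO did not overlap either of the others. Adar1-2KO lay wholly above wild type for 4.5% of all host genes and above Adar2KO for 4.05%. Its log2 fold change was 4.16 ± 1.17 against wild type (adjusted p = 0.449) and 3.64 ± 1.13 against Adar2KO (adjusted p = 0.677). Without Adar1-2KO replicate 3 it was 2.03 and 1.51, and within the shared flow cell 2.05 and 0.99. Within 1 Mb of the circle 35 tested circles of 18 genes had a median log2 fold change of -0.47 in Adar1-2KO against wild type and -0.53 against Adar2KO, beside -0.26 and -0.31 over all circles tested. Of these neighbours 1, a circle of Zbtb20, was called against wild type.

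**Figure D5:**
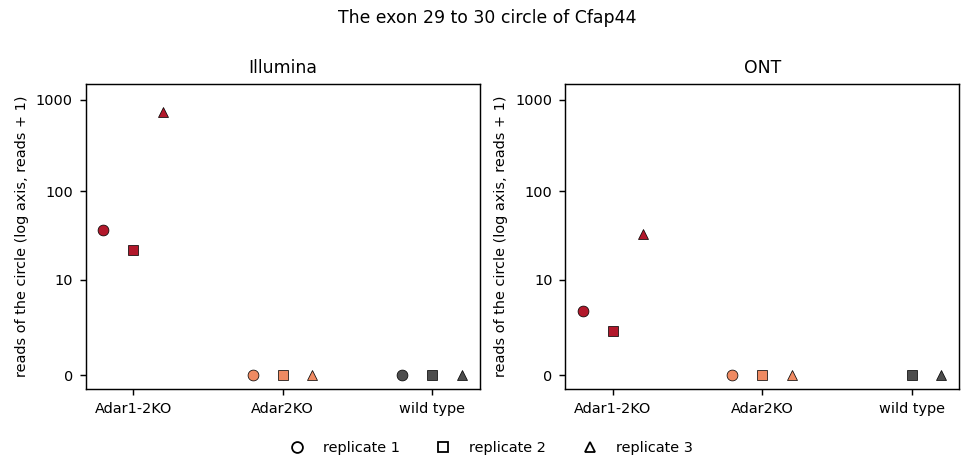
Reads of the exon 29 to 30 circle of Cfap44 in each library on Illumina (left) and ONT (right), on a log axis of reads + 1, with circles not listed drawn at 0 and point shape giving the replicate. The 3 Adar1-2KO libraries have 37, 22 and 736 Illumina reads and 4, 2 and 34 ONT reads, and the others sit at 0.

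On Illumina, the other circles with the lowest p-values in the comparisons of Adar1-2KO ran the other way, with few or no reads in Adar1-2KO. Dnah11 chr12:118046166-118121132 was listed in no Adar1-2KO library, with 2, 7 and 2 reads in Adar2KO and 7, 6 and 5 in wild type (unadjusted p = 0.0138 and adjusted p = 0.719 against wild type). Dnah11 chr12:118072651-118089696 had 0, 0 and 2 reads in Adar1-2KO, 5, 15 and 10 in Adar2KO and 10, 6 and 10 in wild type, with a log2 fold change of -4.16 ± 1.66 against wild type and -4.12 ± 1.66 against Adar2KO. Libraries that do not list this circle entered the fit as 0 without a measured 0, so the size of these folds is a description only. Dnah9 chr11:66021390-66050879 was listed in no Adar1-2KO library and had 6, 7 and 21 reads in Adar2KO and 5, 1 and 0 in wild type (unadjusted p = 0.0109 and adjusted p = 0.764 against Adar2KO). All are circles of few reads, and they met the minimum of reads through the Adar2KO and wild type libraries. Groups that do not overlap with Adar1-2KO lower than wild type were seen in 9 of the 62 circles (14.5%), against 9.82% of all circles, and Adar1-2KO replicate 3, with its short list, is 1 of the 3 libraries. Between Adar2KO and wild type the lowest p belonged to Dnah11 chr12:117916225-117951288, with 6, 0 and 15 reads in Adar2KO and 53, 24 and 23 in wild type, a log2 fold change of -2.48 ± 1.59 (unadjusted p = 0.141). It is the one circle of these genes in the authors' deposited table of Adar2KO against wild type, which gives a log2 fold change of -2.18, a p-value of 0.0204 and an adjusted p-value of 0.99999. In the authors' deposited table of Adar1-2KO against wild type, 343 circles of these genes appear, 12 with a p-value under 0.05 and 0 with an adjusted p-value under 0.05.

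Forward-splice reads, which cross the ordinary junctions at the same exon ends, give the circular share of the reads there. RNase R removes linear RNA, so these shares describe the libraries and not the tissue. The Dnah11 exon 71 to 74 circle made up 84.6%, 90.5% and 62.6% of the reads at its ends in Adar1-2KO, 88.8%, 90.7% and 88.5% in Adar2KO and 87.5%, 87.9% and 91.2% in wild type. Adar1-2KO replicate 3 was the low library, with a 95% exact binomial interval of 59.4% to 65.7%, which covers counting error only. Another Dnah11 circle, chr12:118046166-118084511, was mostly outnumbered by forward splicing, with shares of 19.6%, 24.4% and 1.34% in Adar1-2KO, 25.6%, 61.5% and 26.6% in Adar2KO and 30.8%, 26.3% and 15.2% in wild type. The Spag16 exon 6 to 10 circle stayed between 1.72% and 25.8% in the 8 libraries that list it. For the Cfap44 exon 29 to 30 circle the share was 45.1% (34.1% to 56.5%), 53.7% (37.4% to 69.3%) and 80.2% (77.4% to 82.7%) in the Adar1-2KO replicates. A forward-splice count of 0 was listed for 256 of the 1079 listings of these circles (23.7%, against 25.8% of all listings), so a share of 100% often rests on such a 0. Of the 7 circles deep enough for a test with limma, none changed its share in any comparison, against 0.0944% of all circles tested in Adar1-2KO against wild type, 0.189% in Adar1-2KO against Adar2KO and 0.0787% in Adar2KO against wild type.

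Among other cilium genes 1 passed the test on Illumina. The lists that follow count gene symbols, and some genes stand under an older and a newer symbol. Of 35 further symbols of axonemal dynein and docking genes 15 could be tested on Illumina and none was called. Their median log2 fold change was 0.29 in Adar1-2KO against wild type, beside 0.01 for the 9 genes and -0.07 over all host genes. Dnal1, an outer arm light chain, had most reads on this list (2297), followed by Dnah7b, an inner arm chain (1347). Wdr78, the older symbol of Dnai4, was counted on the next list, with 9658 reads. Of 99 genes of the radial spokes, central pair and other axoneme parts 57 could be tested, and 1 fell. Wdr49, a gene for a protein with WD repeats, had 24, 15 and 9 reads in Adar1-2KO, 10, 24 and 27 in Adar2KO and 1427, 653 and 503 in wild type. Its log2 fold change was -6.11 ± 0.52 in Adar1-2KO against wild type (adjusted p = 0.000272) and -5.55 ± 0.51 in Adar2KO against wild type (adjusted p = 0.000638), and on ONT -7.67 ± 0.98 and -6.09 ± 0.87 (adjusted p = 0.0141 and 0.0107). Both mutants share the loss of Adar2, the Gria2R/R allele and any DNA linked to these altered loci. These cannot be told apart here, and the cause of the fall was not tested. Of 79 genes of intraflagellar transport and the primary cilium 55 could be tested, and of 26 of cytoplasmic dynein and dynactin 19, and none was called. The most read genes of the first list were Bbs9, part of the BBSome coat, with 43592 reads, and Dync2h1, the motor of retrograde transport in cilia, with 10536. Their log2 fold changes in Adar1-2KO against wild type were 0.09 ± 0.19 and -0.12 ± 0.25. Of the second list these were Dync1i1, an intermediate chain (5331 reads), and Hook3, a dynein adaptor (4445 reads), at -0.05 ± 0.32 and 1.08 ± 0.42 (adjusted p = 0.567).

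Several genes that define multiciliated cells had no circle, so the cell type could not be read from circles alone. Of 35 symbols of regulators and markers of multiciliated cells 24 had a circle and 16 could be tested, none of them called. The other 11 had no circle on Illumina, among them Foxj1, Mcidas, Ccno and Ccdc153. However, 1 of the 11, Ccdc67, is an older symbol of Deup1, which had 62 Illumina reads. Rfx3, a transcription factor of cilium genes, gave 71.9% of the list's reads, followed by Ulk4, and their log2 fold changes in Adar1-2KO against wild type were 0.29 ± 0.21 and -0.10 ± 0.39. Summed over the list, the circles made 621 to 833 of each 1000000 back-splice reads in Adar1-2KO, 632 to 675 in Adar2KO and 602 to 697 in wild type. For 28 choroid plexus markers, 16 with circles and 9 tested, the sum was 419 to 482 in Adar1-2KO, 450 to 458 in Adar2KO and 373 to 476 in wild type, and Ttr, Folr1, Kcne2 and Aqp1 had no Illumina circle. The most read of this list were Trpm3 and Atp2b3, at 0.35 ± 0.21 and -0.22 ± 0.33 in Adar1-2KO against wild type on the log2 scale. The 9 genes themselves made 591, 595 and 927 in Adar1-2KO, 440 to 592 in Adar2KO and 506 to 590 in wild type. The Adar1-2KO replicate 3 value was the highest for the 9 genes and for both marker lists, and the part of cell make-up in these values was not tested. None of 10 astrocyte and 15 neuron markers tested on Illumina was called, the most read being Slc4a4 (12018 reads) and Bmpr1b (9224) among the astrocyte and Rims2 (299094) and Rims1 (228930) among the neuron markers. On ONT 1 of 15 neuron markers was, Syt1, a calcium sensor of synaptic vesicles, with a log2 fold change of 1.005 ± 0.197 in Adar1-2KO against Adar2KO (adjusted p = 0.0261).

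Across the 9 Illumina libraries the genes did not vary as 1 group. The correlation of log2 CPM was highest between Cfap54 and Cfap44 (Pearson r = 0.796), both high in Adar1-2KO replicate 3, and lowest between Dnah5 and Cfap44 (r = -0.831). Dnah9 and Cfap54 also ran opposite (r = -0.786). The host genes most like the mean of the 9 genes' scaled log2 CPM, of 8642 compared over 9 libraries, were Flywch1 (r = 0.942), Eif3m (0.9), Rp1 (0.896), Mycbp2 (0.894) and Sbno1 (0.887). These values are descriptions over 9 libraries that differ in depth and share a scaling.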

How the data were processed

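The authors deposited, for each Illumina library, counts of back-splice and forward-splice reads per circle, made with CIRIquant 1.1.2 per the file headers, a CIRI2 table of junction read counts for 8 of the 9 libraries, and ONT tables of read counts per circle. Per the submitters' processing notes the tools were bcl2fastq, BWA 0.7.17 and DESeq2 2.11.40.8 and the build GRCm39. The ONT circle caller is not given in the sources used here. The authors' deposited comparison tables give log2 fold changes and p-values. The header line of the Adar1-2KO CIRIquant tables is shifted against the values by 1 column, which was seen in the values and put right. Illumina lists hold circles from 1 read and ONT lists from 2.

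Circles were assigned by the gene names in the deposited tables. The labels name no strand step, so the gene is uncertain where genes overlap. Circles and host gene sums that reached 5 reads in 3 or more libraries of a platform were tested in 1 fit with edgeR 4.0.16 (R 4.3.3, quasi-likelihood, TMM, two-sided, genotype only, Benjamini-Hochberg at 0.05). limma 3.58.1 tested the circular share on the log2 ratio of both kinds of splice reads, 0.5 added to each, where every library had 20 or more. The scripts were tested on simulated data. CPM of correlations used a prior count of 2. Alternatives were DESeq2 1.42.0, other scalings and filters, CIRI2 counts, a replicate block, the 2 groups alone, 1 library left out and, chosen after seeing the data, the libraries of 1 flow cell.

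Named were all 9 genes and the most read circle of each on each platform, except the circles of Spag17 and the ONT circle of Dnah6. Also named were every circle that passed and up to 3 of lowest p per comparison, and of each other list every gene that passed or otherwise the 2 most read (given for Illumina). Wdr78 and Deup1 were named besides for their other symbols. Other circles were chosen after their values were seen. The genes and lists were chosen with earlier results of these data known.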

Additional observations from a re-analysis of the deposited data

How the results depend on the processing

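The counts of called circles and genes depended on the settings, and those of the motile cilia genes hardly did. No circle or host gene of the 9 was called under any alternative on ONT, none changed its circular share under any, and on Illumina the count moved to 1 (the Cfap44 circle and its gene) with no filter in Adar1-2KO against either other genotype and stayed at 0 otherwise. The numbers below run in the order Adar1-2KO against wild type, Adar1-2KO against Adar2KO and Adar2KO against wild type. Illumina circles were called 24, 8 and 8 times. They were called 190, 183 and 34 times with DESeq2, 423, 369 and 98 times with no filter, 9, 4 and 19 times with the 2 groups alone, and 3, 4 and 1 times in the libraries of the shared flow cell, an alternative chosen after seeing the data. Library sizes from mapped reads gave 15 and 4 in the first comparisons, at least 10 reads gave 4 in the second and 4 in the last, and CIRI2 counts gave 26 and 5 in these. With 1 library left out the counts ran from 8 to 46, from 3 to 28 and from 4 to 20. Illumina host genes were called 8, 4 and 6 times, against 54, 38 and 15 with DESeq2, 183, 153 and 25 with no filter, 7 to 20, 1 to 13 and 2 to 11 with 1 library left out, 4 and 1 (first comparisons) with the 2 groups alone and with mapped reads, 20 on the shared flow cell (first) and 9 with CIRI2 counts (second). ONT circles were called 0, 49 and 1 times, against 47, 189 and 11 with DESeq2, 115, 197 and 83 with no filter, 20 with the 2 groups alone (second), and 0 to 2, 8 to 119 and 0 to 1 with 1 library left out. ONT host genes were called 2, 55 and 4 times, against 66, 181 and 16 with DESeq2, 85, 177 and 35 with no filter, 0, 26 and 9 with the 2 groups alone, 8 with DESeq2 size factors and 0 with at least 10 reads (both first), and 0 to 62, 7 to 175 and 1 to 31 with 1 library left out. The cause was not tested.

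The labels do not say that replicate numbers pair the samples, and same-numbered libraries did not deviate together (correlations from -0.0118 to 0.0112 on Illumina and from -0.0631 to 0.0491 on ONT). With the replicate block the counts were 20, 5 and 8 (Illumina circles), 12, 4 and 6 (Illumina host genes), 1, 28 and 2 (ONT circles) and 4, 53 and 3 (ONT host genes), and 0 for the motile cilia genes. The adjusted p of the Cfap44 circle was 0.140 and 0.184 with the block, 0.35 to 0.867 and 0.338 to 1 with a library of another genotype left out.

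Of 534 alternative values of 33 fold changes of Dnah11, Cfap54, Dnah9 and Cfap44 and of the leading Dnah11 and Cfap54 circles, not all of them printed above, 514 kept their direction and their side of the threshold, 2 (Cfap44, no filter) passed it, and 18 reversed. The reversed ones belong to 8 values near 0 or resting on 1 library. The Cfap54 circle in Adar1-2KO against wild type turned from 0.94 to -0.10 on the shared flow cell. In Adar2KO against wild type on Illumina, Dnah11 turned from -0.14 to 0.040 with mapped reads (-0.50 to 0.049 with 1 library left out), its leading circle from -0.032 to 0.082 with mapped reads and 0.053 with CIRI2 counts (-0.55 to 0.21), and Dnah9 from 0.020 to -0.045 with CIRI2 counts (-0.045 to 0.10). On ONT, Dnah11 in Adar1-2KO against wild type turned from -0.056 to 0.010 with no filter (-0.27 to 0.18), and with 1 library left out Cfap54, its leading circle and Dnah9 in Adar2KO against wild type had values of 0.15, -0.61 and 0.15 and ran from -0.58 to 1.53, from -1.27 to 0.63 and from -0.30 to 0.44. Without an Adar1-2KO library the Cfap44 circle was not tested, and CIRI2 counts, mapped reads and flow cells gave no ONT values. Genes with few reads, such as Spag17, are limited by depth.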
